A study of Mus musculus with 36 samples.

Results

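Ctsk, Acp5, Mmp9 and Mmp14 encode enzymes with which osteoclasts, the multinucleated cells that resorb bone, break down bone matrix. The 4 genes were taken by symbol from the deposited table of RPKM values (read number corrected for gene length and for sequencing depth), which lists 24950 genes. All 4 were among the 11863 genes that reached 1 RPKM in at least 3 libraries, and the lowest value of any of them in any library was 1.01 RPKM. Their levels are described here in all 12 groups of genotype and day.

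Cathepsin K, the product of Ctsk, is a cysteine protease that cleaves type I collagen in the acidic space beneath the osteoclast. Acp5 encodes tartrate-resistant acid phosphatase, the enzyme whose stain is used to recognise osteoclasts. Mmp9 encodes a secreted gelatinase, which is also stored in neutrophil granules, and Mmp14 encodes a membrane-anchored metalloproteinase that cleaves collagen and activates other metalloproteinases. In the osteoclast lineage RANKL acts through its receptor RANK, TRAF6 and NFATc1, which with PU.1 and MITF is known to drive Ctsk and Acp5. IRF8 is a transcription factor of the monocyte lineage that is known as an inhibitor of osteoclast formation.

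The samples were bone marrow-derived macrophages of C57BL/6 mice at day 0 (in M-CSF), and the same kind of culture at day 3 (osteoclast precursors) and day 6 (osteoclasts) with RANKL added at 40 ng/ml and M-CSF at 20 ng/ml. The mice were labelled Irf8 gWT, gKO, cWT or cKO; the labels do not spell out g and c, and name no Cre driver or deleted exon. Each of the 12 groups holds 3 libraries, 36 in all, from male and female mice, without a statement of which library came from which sex or whether the 3 libraries were separate animals or cultures. The p-values therefore measure the spread between these libraries, which may be technical.

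Alignments numbered 34510144 to 92548145 per library in the deposited sheet, and libraries of the same group correlated at r = 0.9917 to 0.9987. Irf8 went against the knockout labels in several groups: it stood at 57.4 ± 1.44 RPKM (mean ± SD, n = 3) in gKO against 63.6 ± 2.61 in gWT at day 0, at 13.4 ± 1.16 against 5.46 ± 0.493 at day 3, and at 4.97 ± 0.255 against 5.58 ± 0.749 at day 6. It stood at 210.0 ± 4.18 RPKM in cKO against 59.00 ± 1.29 in cWT at day 0, at 65.4 ± 3.03 against 6.42 ± 0.982 at day 3, and at 11.2 ± 3.08 against 26.3 ± 1.88 at day 6. Since the deleted part of the gene is not given, its RPKM does not settle which cells lack the protein, and every group name below means the libraries labelled so. The library names in the deposited sheet begin with a letter. All g libraries share u, cWT has s and cKO has t at days 0 and 3, and at day 6 cKO has s while cWT replicates 1 and 2 have t and replicate 3 has s. Per the file headers, the authors revised which day 6 libraries are cKO and cWT. Every result below that uses day 6 of the c pair rests on the labels as deposited. Within days 0 and 3 the cKO and cWT labels coincide with the letters. Only cWT at day 6 holds both t and s. A fit with the letter as a term therefore takes the letter effect from replicates 1 and 2 of that group against replicate 3. It rests on that single library with s and assumes the same letter effect on each day. The 10 osteoclast markers other than the 4 enzymes (Calcr, Oscar, Dcstamp and others) summed to 226 to 248 RPKM in gWT at day 0, 807 to 1008 at day 3 and 2851 to 2902 at day 6. In gKO they were already at 2716 to 2884 at day 3, labelled as precursors, against 2763 to 2829 at day 6, and in cKO at 2149 to 2221 against 2289.5 to 2506. In the gKO and cKO libraries labelled as macrophages, markers of neutrophils summed to more than those of macrophages, as given with the day 0 comparisons. The lists differ in their number of genes, so these sums do not measure amounts of a cell type.

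RefSeq promoter windows on GRCm38.p6, a different build from the mm9 of the expression files, were available for Ctsk, Acp5 and Mmp14. They are shown because the genes rose together and because the regulators named above bind short sequences of the kind searched. Each is printed 5′ to 3′ on the gene's strand and ends just before the annotated start or first exon. Capitals mark matches, on either strand, to an NFAT core (TGGAAA), an E-box (CANGTG), an AP-1 site (TGANTCA), a PU.1 core (GAGGAA) or an ETS-IRF composite (GGAA and GAAA with 2 bases between them). No matches overlap in the windows printed.
Ctsk, chr3:95498960-95499209, plus strand: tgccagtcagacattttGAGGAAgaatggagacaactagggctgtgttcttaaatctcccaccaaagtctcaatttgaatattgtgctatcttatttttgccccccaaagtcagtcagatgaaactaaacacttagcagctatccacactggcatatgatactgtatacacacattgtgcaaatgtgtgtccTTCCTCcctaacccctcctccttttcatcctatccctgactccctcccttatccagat
Acp5, the most downstream of 3 annotated starts, chr9:22130609-22130848, minus strand: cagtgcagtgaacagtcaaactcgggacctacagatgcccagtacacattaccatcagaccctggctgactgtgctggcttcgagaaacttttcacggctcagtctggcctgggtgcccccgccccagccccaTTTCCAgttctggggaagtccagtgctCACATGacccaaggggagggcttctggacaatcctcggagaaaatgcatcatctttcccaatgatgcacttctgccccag
Mmp14, chr14:54431348-54431597, plus strand: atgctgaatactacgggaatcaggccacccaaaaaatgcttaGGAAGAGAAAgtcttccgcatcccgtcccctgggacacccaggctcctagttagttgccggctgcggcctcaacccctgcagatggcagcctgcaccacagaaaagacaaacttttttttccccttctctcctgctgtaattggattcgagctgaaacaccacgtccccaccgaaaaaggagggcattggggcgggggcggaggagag
The Ctsk window holds 2 PU.1 cores, which 23.3% of 32851 windows of 250 bases hold at least once. The Acp5 window holds 1 NFAT core (18.6% of windows) and 1 E-box (39.5%), and the windows of its other starts hold 2 and 1 E-boxes and no other match. The Mmp14 window holds 1 ETS-IRF composite, found in 2.3% of windows. No AP-1 site (6.75% of windows) was found in them. A match is a string of letters in this window and no evidence of binding.

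Ctsk was low in macrophages and among the most abundant transcripts of osteoclasts. At day 0 it stood at 22.01, 50.96 and 25.9 RPKM in gWT replicates 1 to 3 and at 27.7, 42.2 and 24.9 in gKO. It stood at 24.4, 20.04 and 25.7 in cWT and at 9.57, 19.6 and 13.4 in cKO. Replicate 2 was the highest of gWT, gKO and cKO, the g groups overlapped, and all cKO libraries were below all cWT libraries. At day 3 Ctsk stood at 1318, 1467 and 2108 RPKM in gWT and 8106, 7860.1 and 8225 in gKO. It stood at 1713, 1952 and 1588 in cWT and 5385, 5337 and 5474 in cKO, so that each KO-labelled group was above its WT-labelled group without overlap. At day 6 it stood at 7899.8, 8023 and 8292 RPKM in gWT and 11271, 11303 and 10287 in gKO. It stood at 5649, 5921 and 6530.0 in cWT and 7782, 8309.8 and 8208 in cKO, again without overlap within either pair. Lack of overlap within a pair, here and for the other enzyme genes below, was common among all genes tested. At day 0 it held for 79.4% of them in the g pair and 79.5% in the c pair. The shares were 84.9% and 77.1% at day 3, and 58% and 49.9% at day 6. By RPKM, which is scaled per length, Ctsk ranked 1st of all genes in every gKO library at day 3, and between 8 and 19 in gWT at that day.

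Acp5 followed Ctsk closely. At day 0 it stood at 19.3, 36.1 and 21.7 RPKM in gWT and 22.1, 33.02 and 18.7 in gKO. It stood at 30.3, 24.9 and 29.9 in cWT and 9.22, 19.1 and 14.1 in cKO, where all 3 libraries were below the cWT libraries. At day 3 it stood at 843, 937 and 1338 RPKM in gWT and 6640.0, 6213 and 6431 in gKO. It stood at 1744, 1986 and 1690.0 in cWT and 5032, 4892 and 5005 in cKO. Every KO-labelled library at day 3 was above every WT-labelled library, while 84.9% of all genes in the g pair and 77.1% in the c pair did not overlap. At day 6 Acp5 stood at 6137, 6458 and 6812 RPKM in gWT and 7530.1, 7621 and 7181 in gKO. It stood at 4884, 4949 and 5699 in cWT and 8264, 8631 and 8955 in cKO, the highest group of the 12. Neither pair overlapped at day 6, though the gap between the highest gWT and the lowest gKO library was small.

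Mmp9 differed between genotypes already at day 0. It stood at 28.3, 47.8 and 29.1 RPKM in gWT and 68.3, 77.95 and 64.7 in gKO. It stood at 37.9, 33.9 and 36.6 in cWT and 84.7, 108 and 98.9 in cKO. All KO-labelled libraries lay above all WT-labelled libraries at day 0, with gWT replicate 2 the highest of its group. At day 3 Mmp9 stood at 1091, 1171 and 1559 RPKM in gWT and 7614, 7256 and 7516 in gKO. It stood at 1552, 2286 and 1700.2 in cWT and 5988, 5922 and 5859 in cKO, with both pairs apart. At day 6 it stood at 6990.3, 7599.7 and 7014 RPKM in gWT and 6559.9, 6703 and 7376 in gKO, which overlapped. It stood at 4476, 4588 and 4842 in cWT, the lowest group of that day, and at 8053, 7635 and 7284 in cKO.

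Mmp14 reached far lower levels than the others, and before RANKL the gWT libraries were the only ones above 3 RPKM. At day 0 it stood at 13.3, 18.7 and 13.3 RPKM in gWT and 1.79, 2.60 and 1.52 in gKO. It stood at 1.35, 1.83 and 1.59 in cWT and 1.03, 1.51 and 1.01 in cKO. All gWT libraries were far above the other 3 groups, and cWT and cKO overlapped. No counts of reads were used here, so the counting error of values near 1 RPKM is unknown. At day 3 Mmp14 stood at 94.9, 104 and 112 RPKM in gWT and 278, 269 and 275 in gKO. It stood at 169, 195 and 167 in cWT and 249, 251 and 257 in cKO. At day 6 it stood at 314, 325 and 319 RPKM in gWT, the highest group, and 260.2, 268 and 275 in gKO. It stood at 207, 208 and 225 in cWT and 257, 255 and 257 in cKO. KO-labelled libraries were above WT-labelled ones at day 3 in both pairs and at day 6 in the c pair, and below them at day 6 in the g pair.

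**Figure D1:**
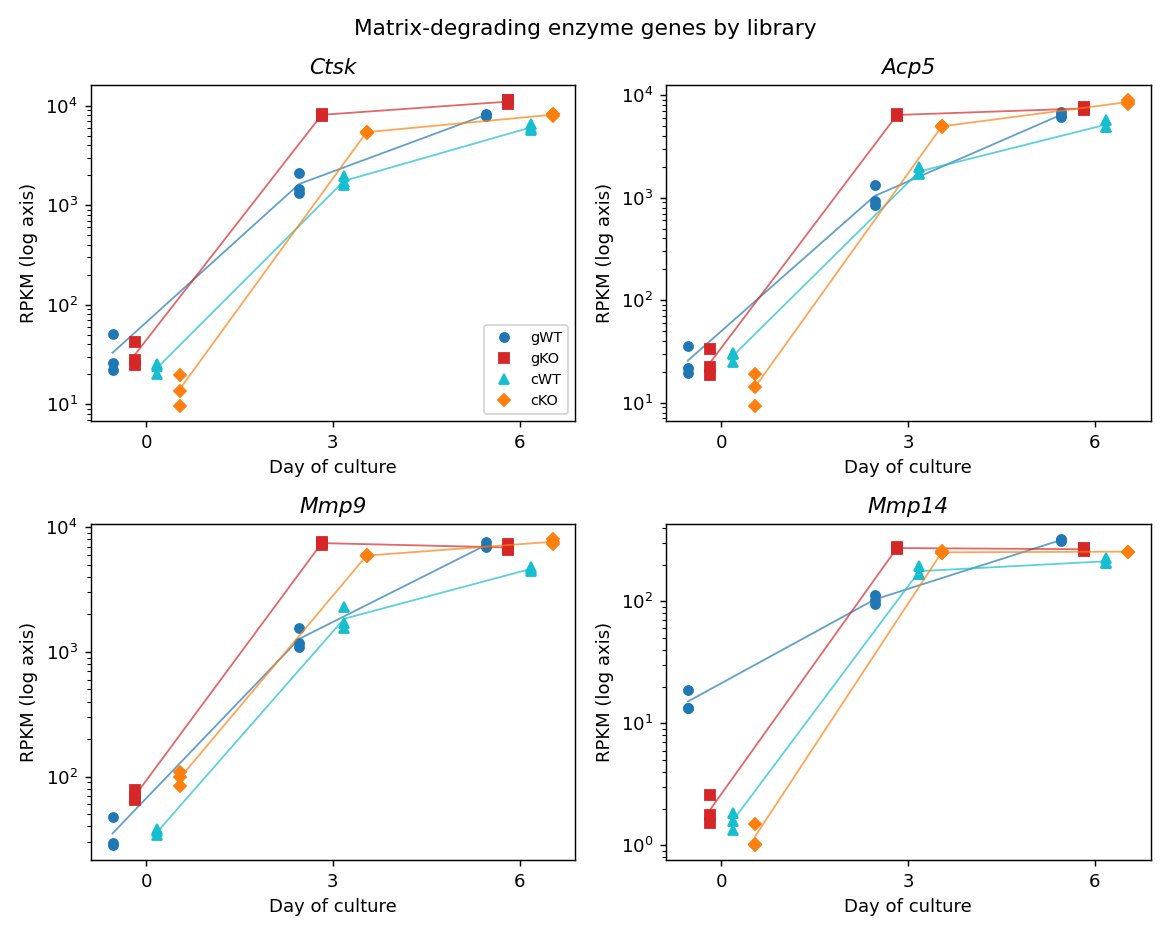
RPKM of the 4 enzyme genes on a log axis (y) by day of culture (x), with 1 point per library (n = 3 per group) and lines through the group means. At day 3 the gKO and cKO points sit above the gWT and cWT points, as for Ctsk with means of 8064 RPKM in gKO and 5398 in cKO against 1631 in gWT and 1751 in cWT.

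From day 0 to day 3, all 4 genes rose in all 4 genotypes. Differences are given in log2(RPKM + 1) with the limma standard error, from 1 fit over all 36 libraries, and a gene is called at a Benjamini-Hochberg adjusted p under 0.05. In gWT, where 83.4% of all genes tested were called and 48.4% were called higher, Ctsk rose by 5.65 ± 0.22, Acp5 by 5.31 ± 0.20, Mmp9 by 5.17 ± 0.14 and Mmp14 by 2.71 ± 0.11. A share of called genes this large means that a call alone sets few genes apart, and the size of the change carries more. By size, Ctsk ranked 5th, Acp5 10th and Mmp9 14th among the 11863 genes in gWT, and Mmp14 ranked 277th. The median of all genes moved by 0.13 in gWT, -0.23 in gKO and -0.16 in cKO.

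The early step was larger in gKO, with 82.5% of all genes called and 28.6% called higher. There Ctsk rose by 7.99 ± 0.22, Acp5 by 8.01 ± 0.20, Mmp9 by 6.71 ± 0.14 and Mmp14 by 6.55 ± 0.11. Acp5 and Ctsk ranked 1st and 2nd of all genes by size in gKO, and Ctsk and Acp5 ranked 1st and 2nd in cKO. In cWT (78.7% of genes called) the changes were 6.17 ± 0.22 for Ctsk, 5.95 ± 0.20 for Acp5, 5.62 ± 0.14 for Mmp9 and 6.10 ± 0.11 for Mmp14. In cKO (80.5% of genes called) they were 8.53 ± 0.22, 8.41 ± 0.20, 5.92 ± 0.14 and 6.87 ± 0.11 in the same order. The highest adjusted p among these changes was 7.8e-20, for Mmp14 in gWT. In each of them every day 3 library was above every day 0 library, while 84.6% of all genes in gWT, 86.1% in gKO, 78.3% in cWT and 87% in cKO did not overlap between these days.

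From day 3 to day 6 all 4 genes rose in gWT and cWT, 3 rose in cKO and none was called in gKO. In gWT, with 75.6% of all genes called and 27.7% called higher, Ctsk rose by 2.34 ± 0.22, Acp5 by 2.66 ± 0.20, Mmp9 by 2.51 ± 0.14 and Mmp14 by 1.62 ± 0.11. The median of all genes moved by -0.14 in that step. In cWT, with 71.2% called and 28.5% called higher, the rises were 1.79 ± 0.22, 1.52 ± 0.20, 1.35 ± 0.14 and 0.27 ± 0.11. The Mmp14 rise in cWT was small (adjusted p = 0.0258) and was not called without cWT day 3 replicate 1 (adjusted p = 0.0843) or replicate 3 (0.091), or without day 6 replicate 3 (0.0874).

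In gKO, where 59.3% of all genes were called, no enzyme gene was called from day 3 to day 6. The differences were 0.44 for Ctsk (95% interval -0.0044 to 0.89, adjusted p = 0.0823), 0.21 for Acp5 (-0.19 to 0.62, 0.371), -0.12 for Mmp9 (-0.41 to 0.17, 0.496) and -0.033 for Mmp14 (-0.25 to 0.19, 0.814). Ctsk and Acp5 in gKO did not overlap between day 3 and day 6, as for 66.5% of all genes. The fit over all groups gives each gene a single spread, and for Ctsk that spread includes day 0, where the SD was 47.7% of the mean in gWT against 2.48% at day 6. In a fit of the 2 groups compared, Ctsk (adjusted p = 0.00155) and Acp5 (0.033) were called, and with quantile scaling the Ctsk difference turned to -0.52 (adjusted p = 0.0832).

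In cKO, with 57.1% of all genes called and 20.4% called higher, Ctsk rose by 0.58 ± 0.22 (adjusted p = 0.0231), Acp5 by 0.79 ± 0.20 (0.00126) and Mmp9 by 0.37 ± 0.14 (0.0292). Mmp14 differed by 0.019 (95% interval -0.20 to 0.24) and was not called. The library letter changes from t to s between these cKO groups. With the letter as a term none of the 3 rises was called (adjusted p = 0.518, 0.274 and 0.511), and quantile scaling turned the Mmp9 difference to -0.44. The Mmp9 call was lost when any of 5 of the 6 libraries was left out (adjusted p over the 6 settings 0.0395 to 0.0784), and the Ctsk call when any of 3 was (0.0366 to 0.0578). Over this step the neutrophil markers went from 5819 to 7126 to 753 to 922 RPKM in gKO and from 5182 to 5994 to 166 to 225 in cKO, and their part was not tested.

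**Figure D2:**
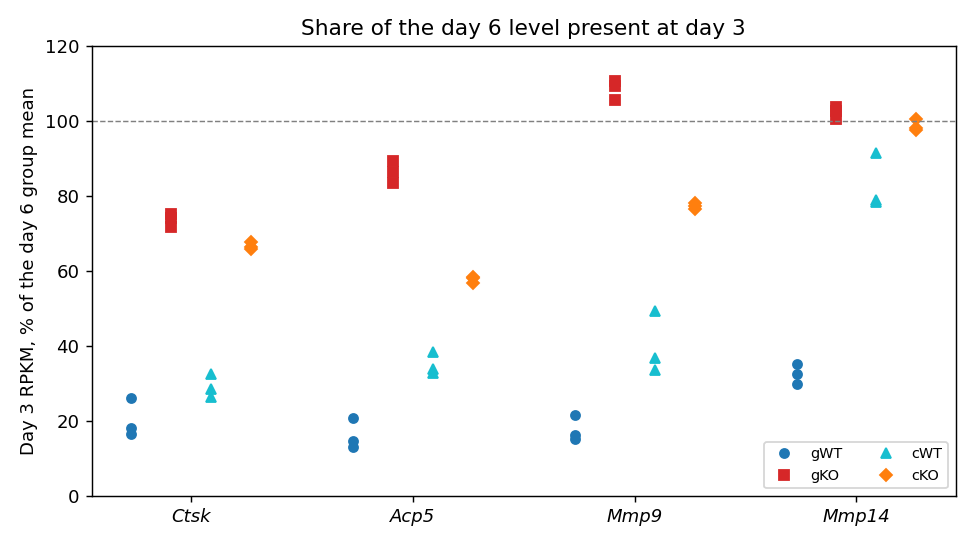
Day 3 RPKM of each library as a percentage of the day 6 mean of its genotype (y) for the 4 genes (x), with 3 points per genotype and a dashed line at 100%. For each gene the gWT mean is the lowest, as 20.2% for Ctsk, and the gKO mean the highest, as 108% for Mmp9.

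Set against the day 6 mean of the same genotype, the day 3 level of Ctsk was 20.2% in gWT, 73.6% in gKO, 29.0% in cWT and 66.6% in cKO. For Acp5 the shares were 16.1%, 86.3%, 34.9% and 57.8%. For Mmp9 they were 17.7%, 108%, 39.8% and 77.4%, so gKO stood slightly above its own day 6 mean. For Mmp14 they were 32.5%, 102%, 83.0% and 98.7%. In the summed RPKM of a library, the 4 genes together took 0.0263% in gWT at day 0, 0.987% at day 3 and 5.47% at day 6. In gKO they took 0.0326%, 5.73% and 6.38%, in cWT 0.0215%, 1.25% and 4.03%, and in cKO 0.032%, 4.34% and 6.02%.

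The difference between genotypes in the size of each step was tested in the same fit. These tests share libraries with each other and with the genotype comparisons below. For day 0 to day 3, where 81.8% of all genes were called, the step of gKO exceeded that of gWT by 2.33 ± 0.31 for Ctsk, 2.70 ± 0.28 for Acp5, 1.55 ± 0.20 for Mmp9 and 3.84 ± 0.15 for Mmp14. All 4 were called, the highest adjusted p being 5.74e-08. A difference in this step takes in the gKO minus gWT difference at day 0. That was -2.44 for Mmp14 and 1.02 for Mmp9, against 1.40 and 2.57 at day 3. For day 3 to day 6 (74.8% called) the gKO step was smaller by 3.72-fold for Ctsk, 5.47-fold for Acp5, 6.21-fold for Mmp9 and 3.14-fold for Mmp14 on the RPKM + 1 scale, all called.

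In the c pair the early step of cKO exceeded that of cWT by 2.36 ± 0.31 for Ctsk, 2.47 ± 0.28 for Acp5 and 0.76 ± 0.15 for Mmp14, which were called, where 72.9% of all genes were. For Mmp9 the excess was 0.30 (95% interval -0.11 to 0.72, adjusted p = 0.181) and was not called, though it was without cWT day 3 replicate 2 (adjusted p = 0.0347), the highest of its group. These values take in the cKO minus cWT differences at day 0. Those were -0.73 for Ctsk, -1.003 for Acp5, -0.25 for Mmp14 and 1.40 for Mmp9, against 1.63, 1.46, 0.51 and 1.70 at day 3. In the late step (69.1% called) the differences cKO minus cWT were -1.20 ± 0.31 for Ctsk, -0.73 ± 0.28 for Acp5 and -0.98 ± 0.20 for Mmp9, all called. The Acp5 difference was not called without cWT day 6 replicate 3 (adjusted p = 0.0531). With the letter as a term, the Ctsk and Acp5 differences were larger (-1.49 and -1.08) with wider errors, and were not called (adjusted p = 0.0794 and 0.167). For Mmp14 the late difference was -0.25 (95% interval -0.56 to 0.058) and was not called. It was called with quantile scaling (-0.52) and with equal summed RPKM (-0.53).

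Between genotypes at day 0, Mmp9 was higher and Mmp14 lower in gKO than in gWT, a comparison in which 78.8% of all genes were called, 79.4% did not overlap and the median of all genes moved by 0.16. Mmp9 differed by 1.02 ± 0.14, 2.03-fold on the RPKM + 1 scale (adjusted p = 2.01e-07). Mmp14 differed by -2.44 ± 0.11, 5.43-fold lower on the RPKM + 1 scale (adjusted p = 1.35e-18), and the ratio of the mean RPKM was 0.130. Ctsk (95% interval -0.44 to 0.45) and Acp5 (-0.45 to 0.36) were not called, and the sign of both turned when single libraries were left out. The 14 neutrophil markers, all above 1 RPKM in both groups, summed to 22089 to 27762 RPKM in gKO against 2147 to 2812 in gWT. Of them 13 were called higher in gKO and 1, Mmp8, lower (log2 -0.30 ± 0.11). The 8 macrophage markers in the table summed to 7336 to 8309 against 19896 to 22069.6, and the 18 stromal markers to 91.7 to 94.99 against 9.31 to 10.6, with 7 and 2 of them above 1 RPKM. The part of these cell types in the enzyme levels was not tested. In bulk RNA, fewer cells of a type and less RNA per cell cannot be told apart.

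At day 0 in the c pair, where 68% of all genes were called and 79.5% did not overlap, Mmp9 was higher in cKO than in cWT by 1.40 ± 0.14 (adjusted p = 9.74e-10). Ctsk was lower by 1.65-fold (log2 -0.73 ± 0.22, adjusted p = 0.00431) and Acp5 by 2.004-fold (log2 -1.003 ± 0.20, adjusted p = 5.9e-05). With the letter as a term, neither Ctsk (adjusted p = 0.281) nor Acp5 (0.0782) was called, and without cKO replicate 1 Ctsk was not (0.0598). Mmp14 differed by -0.25 ± 0.11 (adjusted p = 0.0408) with overlapping groups, and the call was lost when any of 4 of the 6 libraries was left out. The authors' deposited values give a cKO to cWT ratio of 0.588 for Ctsk (q = 0.0622) and 0.754 for Mmp14 (q = 0.0965). For Acp5 they give 0.482 (q = 0.0156) and for Mmp9 2.68 (q = 0.000218). The neutrophil markers summed to 22935 to 24438 RPKM in cKO and 3679 to 3780.2 in cWT, and the macrophage markers to 5829.8 to 5971 and 10138 to 10499. Of the neutrophil markers 13 were called higher in cKO and 1, Mmp8, lower (log2 -0.35 ± 0.11). The stromal markers summed to 63.9 to 77.1 in cKO and 9.09 to 12.2 in cWT, and the 4 lymphocyte markers to 11.4 to 36.3 and 1.91 to 2.61. Their part was not tested. The ratio of Mmp9 to Ctsk RPKM within a library at day 0 was 1.12 ± 0.174 (SD, n = 3) in gWT, 2.30 ± 0.399 in gKO, 1.56 ± 0.134 in cWT and 7.24 ± 1.67 in cKO. At days 3 and 6 the mean ratio was between 0.631 ± 0.0750 in gKO at day 6 and 1.10 ± 0.0234 in cKO at day 3.

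**Figure D3:**
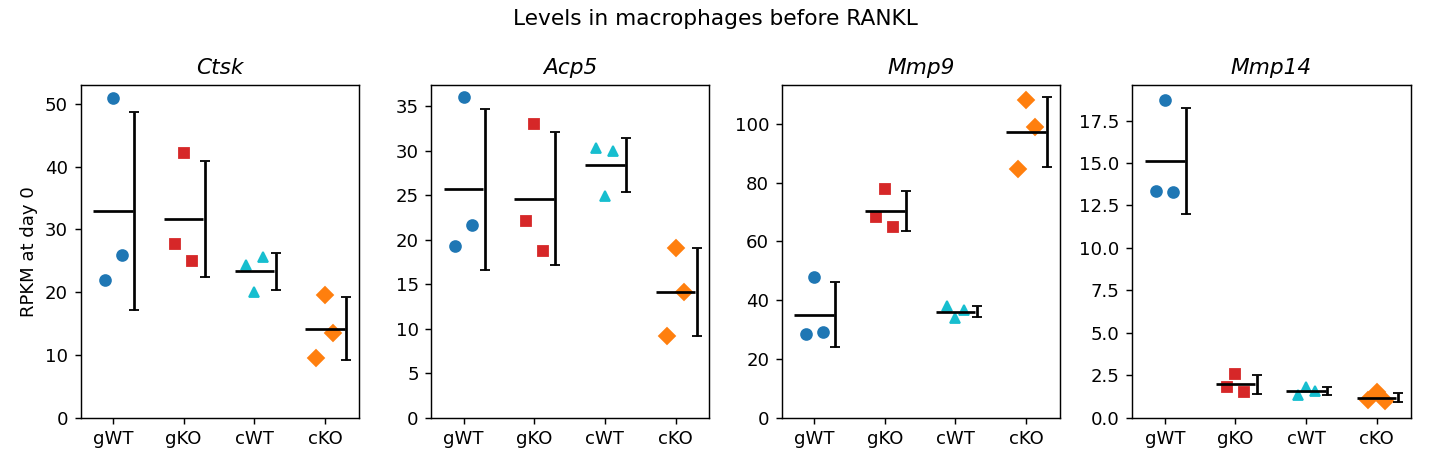
RPKM at day 0 (y, linear from 0) of the 4 genes by genotype (x), with 1 point per library, a horizontal line at the mean and a bar of ± 1 SD (n = 3). Mmp9 is higher in gKO (70.3) and cKO (97.2) than in gWT (35.1) and cWT (36.1), and Mmp14 is near the bottom of its axis outside gWT.

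At day 3 all 4 genes were higher in the KO-labelled group of both pairs. In the g pair, where 79.1% of all genes were called and 32.6% called higher, Acp5 differed by 2.66 ± 0.20 (6.30-fold on the RPKM + 1 scale), Mmp9 by 2.57 ± 0.14 (5.93-fold), Ctsk by 2.33 ± 0.22 (5.05-fold) and Mmp14 by 1.40 ± 0.11 (2.63-fold). The adjusted p-values lay between 5.77e-16 for Mmp9 and 6.31e-11 for Ctsk, and all 3 gKO libraries were above all 3 gWT libraries for each gene, while 84.9% of all genes did not overlap. The median of all genes moved by -0.11. In the c pair (77% called, 32.8% higher, 77.1% without overlap) Mmp9 differed by 1.70 ± 0.14 (3.25-fold), Ctsk by 1.63 ± 0.22 (3.09-fold), Acp5 by 1.46 ± 0.20 (2.76-fold) and Mmp14 by 0.51 ± 0.11 (1.43-fold). The highest adjusted p was 8.84e-05, for Mmp14. All cKO libraries of this day have the letter t and all cWT libraries s, so genotype and letter cannot be told apart within it. The 10 osteoclast markers were all called higher in both pairs, summing to 2716 to 2884 RPKM in gKO against 807 to 1008 in gWT and to 2149 to 2221 in cKO against 917 to 1128 in cWT. The neutrophil markers summed to 5819 to 7126 in gKO and 325 to 781 in gWT, and to 5182 to 5994 in cKO and 840.2 to 1074 in cWT, and their part was not tested.

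At day 6 none of the 4 genes was called between gKO and gWT, where 50% of all genes were. The differences were 0.44 for Ctsk (95% interval -0.0058 to 0.88, adjusted p = 0.0943), 0.20 for Acp5 (-0.20 to 0.61, 0.415), -0.067 for Mmp9 (-0.36 to 0.23, 0.731) and -0.25 for Mmp14 (-0.47 to -0.034, 0.0503). Ctsk, Acp5 and Mmp14 did not overlap between the groups, as for 58% of all genes. Fitted on those 2 groups alone, Ctsk (adjusted p = 0.00183) and Mmp14 (0.00495) were called. The neutrophil markers summed to 753 to 922 RPKM in gKO and 90.7 to 112 in gWT, with 13 of 14 called higher, and their part was not tested. The authors' deposited table gives a gKO to gWT ratio of 1.36 for Ctsk (q = 0.000677), 1.15 for Acp5 (q = 0.0382), 0.955 for Mmp9 (q = 0.319) and 0.839 for Mmp14 (q = 0.000617).

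Between cKO and cWT at day 6 (53.6% of genes called, 13.2% higher, 49.9% without overlap), Acp5 was higher by 0.74 ± 0.20 (1.67-fold, adjusted p = 0.00261), Mmp9 by 0.72 ± 0.14 (1.65-fold, 0.00012) and Mmp14 by 0.26 ± 0.11 (1.20-fold, 0.0397). Ctsk differed by 0.43 (95% interval -0.018 to 0.87, adjusted p = 0.0984) and was not called, while the authors' deposited table gives a ratio of 1.34 (q = 0.000808). These calls moved with the processing. With cWT replicate 3 as the only cWT library, the one that shares the letter s with cKO, Acp5 (adjusted p = 0.113) and Mmp14 (0.382) were not called. With quantile scaling Acp5 (0.237), Mmp9 (0.843) and Mmp14 (0.0869) were not called, and Ctsk turned to -0.38. The Mmp14 call was also lost when any of 5 of the 6 libraries was left out. The 18 stromal markers summed to 503 to 690.0 RPKM in cWT and 216 to 291 in cKO, against 34.2 to 139 in gWT and 82.7 to 163 in gKO, with 15 of 18 above 1 RPKM in cWT. The neutrophil markers, higher in cKO at days 0 and 3, summed to 166 to 225 in cKO and 785 to 1008 in cWT at day 6, with 14 of 14 called lower and a median difference of -1.91. The part of both lists was not tested. Irf8 was likewise higher in cKO than in cWT at days 0 and 3 and lower at day 6, at 11.2 against 26.3 RPKM. Per the file headers, the authors revised which day 6 libraries are cKO and cWT. The labels were used as deposited, and whether they are right was not tested.

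**Figure D4:**
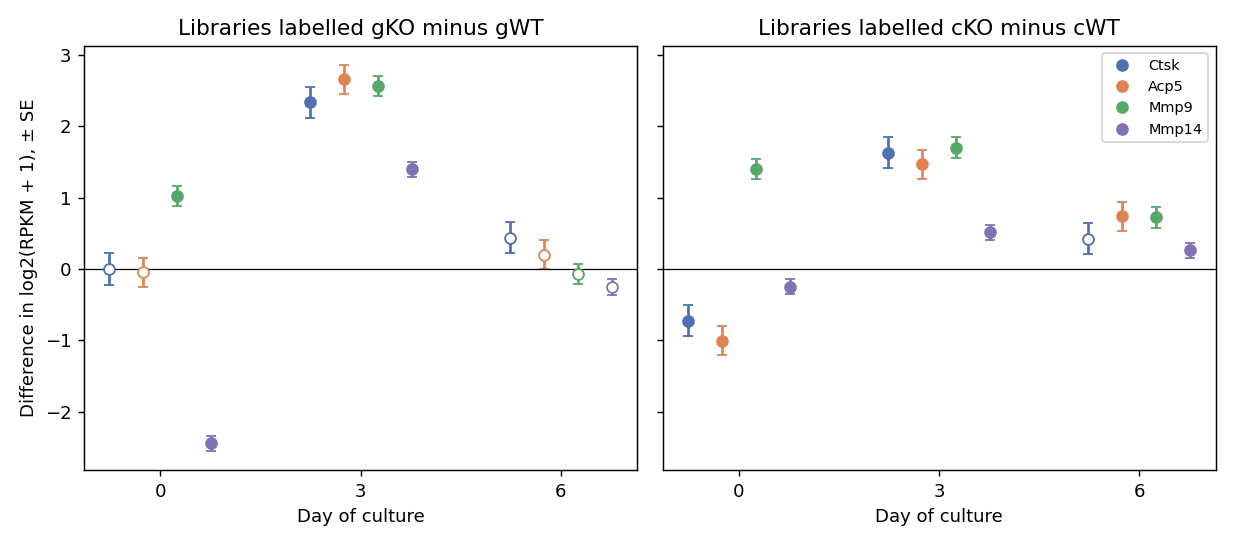
Difference in log2(RPKM + 1) between KO-labelled and WT-labelled libraries (y, ± SE from limma) by day (x), for the g pair on the left and the c pair on the right, with filled points for an adjusted p under 0.05 and open points otherwise. All 4 genes are above 0 at day 3 in both pairs, up to 2.66 for Acp5 in the g pair, and Mmp14 in the g pair goes from -2.44 at day 0 to 1.40 at day 3.

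The genotype differences of the c pair and the g pair were themselves compared. At day 0, Mmp14 had means of 15.1 RPKM in gWT, 1.97 in gKO, 1.59 in cWT and 1.18 in cKO, so gWT alone stood apart. The log2(RPKM + 1) scale understates differences between the low values of the c pair. At day 0 (57.3% of genes called) the c difference minus the g difference was 2.19 ± 0.15 for Mmp14 (adjusted p = 1.04e-12), -0.96 ± 0.28 for Acp5 (0.00464) and -0.73 ± 0.31 for Ctsk (0.0447). The Ctsk call was lost when any of 7 of the 12 libraries was left out. For Mmp9 it was 0.38 (95% interval -0.037 to 0.79) and was not called, though it was without gWT replicate 1 (adjusted p = 0.0376). At day 3 (54.9% called) it was -1.19 ± 0.28 for Acp5 (0.000776), -0.87 ± 0.20 for Mmp9 (0.000748) and -0.88 ± 0.15 for Mmp14 (1.96e-05), so the excess of KO-labelled over WT-labelled libraries was smaller in the c pair. For Ctsk it was -0.71 (95% interval -1.34 to -0.077, adjusted p = 0.0529), and it was called without gWT day 3 replicate 3 (adjusted p = 0.0164). The Mmp9 difference at day 3 was not called with quantile scaling (-0.36, adjusted p = 0.364). With the letter as a term, the Ctsk and Acp5 differences at day 0, the Acp5 and Mmp9 differences at day 3 and the Mmp14 difference at day 6 were not called. At day 6 (60.5% called) Mmp9 (0.79 ± 0.20, 0.00136) and Mmp14 (0.52 ± 0.15, 0.00438) differed, while the 95% interval was -0.64 to 0.62 for Ctsk and -0.040 to 1.11 for Acp5. The Mmp9 difference at day 6 was not called with quantile scaling (0.35, adjusted p = 0.379).

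The gKO libraries at day 3 were also set against the gWT libraries at day 6, where 45.5% of all genes were called and none of the 4 was. The 95% interval of the difference was -0.45 to 0.44 for Ctsk, -0.41 to 0.40 for Acp5, -0.24 to 0.35 for Mmp9 and -0.44 to -0.0012 for Mmp14. Mmp14 did not overlap between these groups (as for 65% of all genes), with gKO lower, and was called in a fit of the 2 groups alone (adjusted p = 0.000156). Quantile scaling turned the Ctsk difference to 0.52 (adjusted p = 0.0992). The neutrophil markers summed to 5819 to 7126 RPKM in gKO at day 3 and 90.7 to 112 in gWT at day 6, and their part was not tested.

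By mean RPKM, Ctsk ran from cKO day 0 (14.2) through cWT, gKO and gWT at day 0, gWT and cWT at day 3, cKO day 3, cWT day 6, gKO day 3, gWT day 6 and cKO day 6 to gKO day 6 (10954). Neighbours in that order overlapped among cWT, gKO and gWT at day 0, between gWT and cWT at day 3, and among gKO day 3, gWT day 6 and cKO day 6. Acp5 ran from cKO day 0 (14.2) to cKO day 6 (8616), so that groups labelled cKO held both its lowest and its highest mean. The library letter was t in the lowest of these groups and s in the highest. Its day 0 groups overlapped from neighbour to neighbour, as did cKO day 3 with cWT day 6 and gKO day 3 with gWT day 6. Mmp9 ran from gWT day 0 (35.1) to cKO day 6 (7657), and gKO day 6, gWT day 6, gKO day 3 and cKO day 6 each overlapped their neighbour at the top. Mmp14 ran from cKO day 0 (1.18) to gWT day 6 (319), and each step between gKO day 0, gWT day 0, gWT day 3, cWT day 3 and cWT day 6 was free of overlap.

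Over the 36 libraries, log2(RPKM + 1) of Ctsk and Acp5 correlated at r = 0.998, Ctsk and Mmp9 at 0.983, and Mmp9 and Mmp14 at 0.940. The points share their day of culture and the scaling of each library, and no test was made of these values. Over the 12 libraries of day 0 alone the correlation of Ctsk with Acp5 was 0.895, that of Ctsk with Mmp9 was -0.288 and that of Mmp9 with Mmp14 was -0.562. Among 9060 genes with a group mean of at least 5 RPKM (predicted gene models left out), those whose 12 group means were most like Ctsk were Slc9b2 (0.996), Mt3 (0.995), Siglec15 (0.994), Spns2 (0.994) and Slc45a3 (0.993), by Pearson's r. For Acp5 they were Mt3 (0.996), Slc9b2 (0.994), Tnfrsf9 (0.994), Fgfrl1 (0.993) and Siglec15 (0.993). For Mmp9 they included Myo1d (0.994), Ublcp1 (0.993), Sema7a (0.993) and Plpp1 (0.993). For Mmp14 they were Plekhn1 (0.995), Pdgfb (0.990), Antxr2 (0.988), Atp6v0d2 (0.987) and Rilpl1 (0.985). Siglec15 encodes a surface lectin and Atp6v0d2 a proton pump subunit of osteoclasts.

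Mmp9 and Mmp14 belong to a family of which most other members were at or near 0 here. Of 21 other matrix metalloproteinase genes listed, 12 missed the filter, with no group mean above 0.965 RPKM, and 9 were tested. From day 0 to day 3 in gWT, 2 of the 9 rose and 6 fell, where 83.4% of all genes were called and 48.4% called higher, with a median difference of -0.61 against 0.13 for all genes. Mmp12, the macrophage elastase, stood at 60.9 ± 15.7, 152 ± 11.7 and 54.1 ± 4.38 RPKM at days 0, 3 and 6 in gWT, rising by 1.33 ± 0.19 and then falling (log2 -1.47 ± 0.19). Mmp8, the neutrophil collagenase, fell from 126 ± 6.94 to 8.51 ± 1.87 RPKM in gWT by day 3 (log2 -3.76 ± 0.11). Mmp13, a collagenase, stood at 17.4 ± 3.49 RPKM in gWT and 1.10 ± 0.215 in gKO at day 0, a difference of -3.12 ± 0.11 (adjusted p = 3.18e-21) that ran the same way as that of Mmp14. Mmp27 was also lower in gKO at day 0 (log2 -1.90 ± 0.10), as was Mmp12 (-2.003 ± 0.19), and in the c pair Mmp27 (-1.47 ± 0.10) and Mmp13 (-0.31 ± 0.11) were lower in cKO and Mmp12 was higher (1.88 ± 0.19). The Mmp13 call in the c pair was lost with the letter as a term and without cWT replicate 3. Between gKO and gWT at day 3, 3 of the 9 were higher, 3 lower and 3 not called, near the share over all genes (79.1% called, 32.6% higher). Mmp8 was higher (1.72 ± 0.11) and Mmp12 lower (-2.17 ± 0.19) in gKO at that day.

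Of 14 inhibitors of these enzymes listed, 11 were tested. A2m, Timp4 and Cst6 missed the filter, with no group mean above 0.147 RPKM. Cst3, which encodes cystatin C, an inhibitor of cathepsins, stood at 1052 ± 109 RPKM in gWT at day 0, 645 ± 38.3 at day 3 and 1325 ± 18.8 at day 6, falling (log2 -0.70 ± 0.096) and then rising (1.04 ± 0.096). Cstb, encoding the intracellular inhibitor cystatin B, rose at both steps in gWT (1.15 ± 0.095 and 0.56 ± 0.095). Timp2, which encodes an inhibitor that also takes part in the activation of pro-MMP2 by MMP14, stood at 46.4 ± 0.966 RPKM in gWT and 8.72 ± 0.428 in gKO at day 0 (log2 -2.29 ± 0.082, adjusted p = 1.07e-20). At day 3 it was higher in gKO (0.78 ± 0.082) and in cKO (0.54 ± 0.082), so in the g pair its sign at each of these days was that of Mmp14. Cst7, encoding cystatin F, was higher at day 0 in gKO (4.23 ± 0.10) and cKO (2.63 ± 0.10). Between gKO and gWT at day 3, 8 of the 11 inhibitors were higher, 0 lower and 3 not called, where 79.1% of all genes were called and 32.6% higher, with a median of 0.76 against -0.11 for all genes. For cKO against cWT the counts were 6, 0 and 5, where 77% of all genes were called and 32.8% higher. In both pairs 4 of those called higher were the stefin A genes Stfa1, Stfa2, Stfa3 and Stfa2l1, named after their values were seen, whose means at day 3 were at most 5.92 RPKM and whose similar sequences make the split of reads among them uncertain. The neutrophil markers were higher in the same comparisons, as given above, and their part was not tested. At day 6 Timp3 and Mmp2 stood at 13.7 ± 3.71 and 7.66 ± 1.78 RPKM in cWT and at 3.92 ± 1.67 and 2.55 ± 0.987 in cKO (log2 -1.62 ± 0.34 and -1.31 ± 0.22), the day and groups in which the stromal markers differed as given above.

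Of 6 acid phosphatases listed besides Acp5, 4 were found in the table and tested. From day 0 to day 3 in gWT 2 rose and 2 fell, where 83.4% of all genes were called. Acp1 rose by 0.59 ± 0.058 and Acp2 fell (log2 -0.35 ± 0.055), against a rise of 5.31 for Acp5. At day 3 in gKO against gWT, 0 were higher, 2 lower, among them Acp1 (log2 -0.63 ± 0.058), and 2 not called. In that comparison 79.1% of all genes were called and 32.6% called higher. Acp2, encoding a lysosomal acid phosphatase, was lower in gKO at day 0 (-1.30 ± 0.055).

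Of 14 genes for activation of the enzymes and for their matrix partners, 11 were tested. In gWT from day 0 to day 3, 3 rose, 6 fell and 2 were not called, against 83.4% of all genes called and 48.4% called higher. Lgmn, encoding the lysosomal protease legumain, fell from 876 ± 14.2 to 95.3 ± 3.72 RPKM, and Cd44, encoding a hyaluronan receptor that can dock MMP9, rose from 58.7 ± 3.13 to 169.8 ± 2.61. Furin, the convertase that activates MMP14, fell in that step (log2 -0.41 ± 0.065). At day 3 Spp1, encoding the bone matrix protein osteopontin, stood at 353 ± 29.9 RPKM in gWT and 1133 ± 41.3 in gKO (1.68 ± 0.15), and was higher in cKO than in cWT as well (1.04 ± 0.15). Hpse, encoding heparanase, was higher in gKO (2.003 ± 0.12) and cKO (2.64 ± 0.12). Plau, encoding the urokinase that generates plasmin, went the other way, at 91.7 ± 3.08 RPKM in gWT and 7.59 ± 0.239 in gKO (-3.43 ± 0.13), and lower in cKO (-1.06 ± 0.13). Lgmn at day 0 was lower in gKO (-3.05 ± 0.079). Lcn2, encoding a protein that binds MMP9, is on the neutrophil marker list and stood at 777 ± 61.7 RPKM in gKO and 98.5 ± 14.3 in gWT at day 0.

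Among 9 regulators of the RANKL response, 8 rose and 1 fell from day 0 to day 3 in gWT, where 83.4% of all genes were called and 48.4% called higher, with a median of 0.71 against 0.13 for all genes. Nfatc1 rose from 8.86 ± 0.823 to 47.9 ± 1.51 RPKM. Between genotypes at day 3, 2 of 9 were higher in gKO, 4 lower and 3 not called, where 79.1% of all genes were called and 32.6% higher, with a median of -0.023 against -0.11. Nfatc1 was higher in gKO (0.53 ± 0.082) and cKO (0.39 ± 0.082, not called with the letter as a term), and Traf6 likewise (0.82 ± 0.062 and 0.62 ± 0.062). Fos, encoding an AP-1 subunit, was lower in gKO (-1.92 ± 0.047) and cKO (-1.86 ± 0.047), as was Mitf (-0.88 ± 0.056 and -0.75 ± 0.056). Tnfrsf11a, encoding RANK, stood at 41.7 ± 1.78 RPKM in gWT and 43.3 ± 1.66 in gKO at day 3 (adjusted p = 0.485), and was called higher with quantile scaling. At day 3 in the g pair, Nfatc1 and Traf6 differed by under 1 on the log2 scale and Fos by -1.92. Ctsk, Acp5 and Mmp9 differed by more than 2 in that pair, and Mmp14 by 1.40. In the c pair Nfatc1 and Traf6 differed by 0.39 and 0.62. Ctsk differed there by 1.63, Acp5 by 1.46, Mmp9 by 1.70 and Mmp14 by 0.51. No test was made of these sizes against each other.

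**Figure D5:**
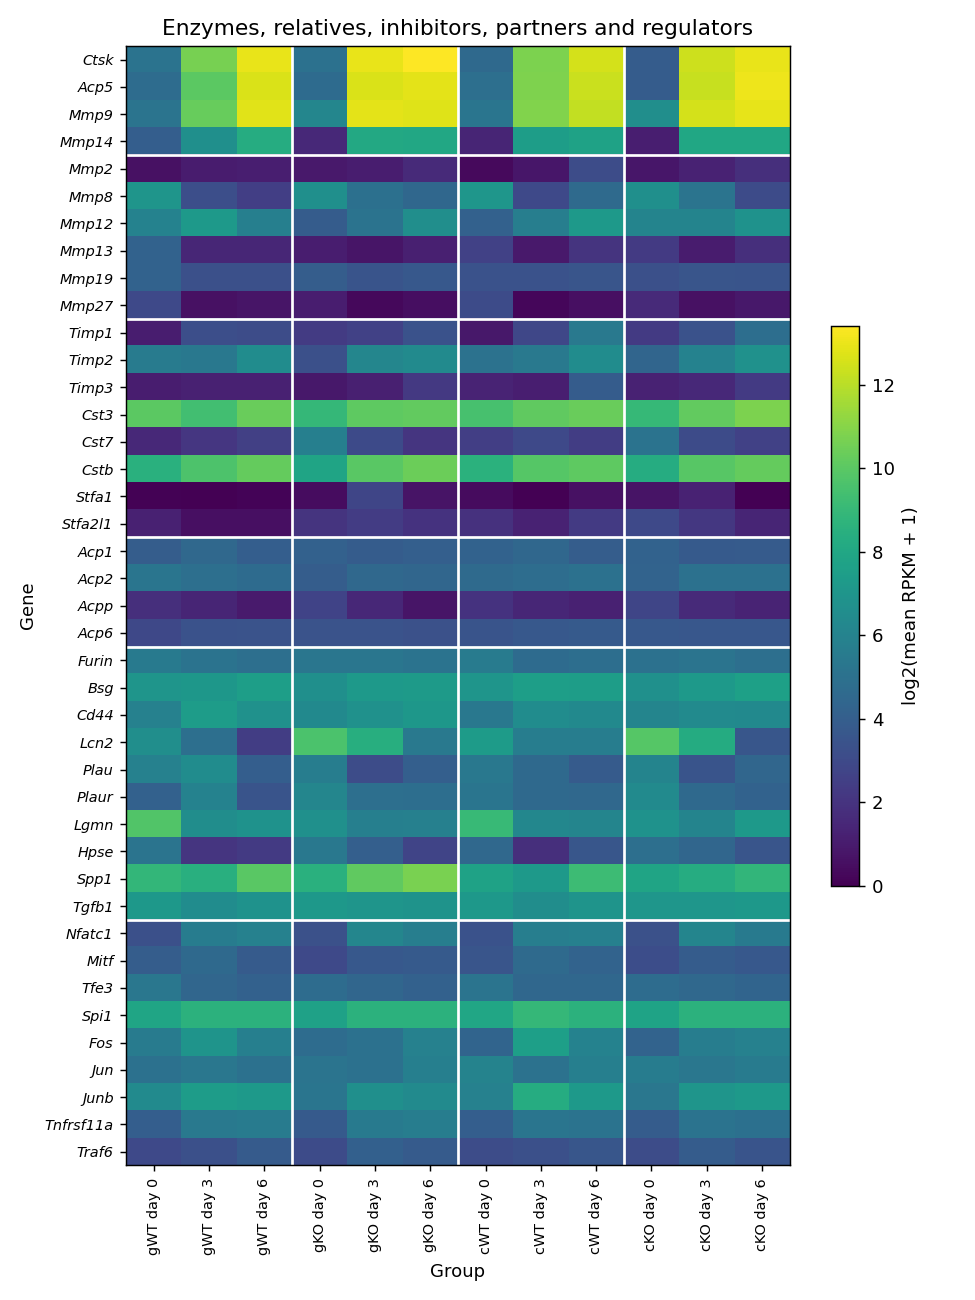
Heat map of log2(mean RPKM + 1) (colour) in the 12 groups (columns) for the 4 enzyme genes (top rows) and, below white lines, other metalloproteinases, protease inhibitors, other acid phosphatases, activation and matrix partners, and regulators with a group mean of at least 5 RPKM (n = 3 libraries per group). The rows of Ctsk, Acp5 and Mmp9 change colour from day 0 to day 6, as Ctsk from 32.95 to 8072 RPKM in gWT, and that of Mmp19 goes from 17.4 ± 0.478 to 8.65 ± 0.163 RPKM there.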

How the data were processed

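RNA from 36 libraries (12 groups of 3) was sequenced. Per the file headers, the authors combined 3 data sets, revised which day 6 libraries are cKO and cWT, mapped reads with TopHat to mm9 and computed RPKM per gene with Partek, the unit of the deposited values. Per the submitters' processing notes the tools included TopHat2 2.1.0, with bcl2fastq 2.17.1 and CASAVA 1.8.4 before it, besides deepTools and Partek. The deposited sample sheet gives alignment counts of 34510144 to 92548145 per library (median 46799532). Counts per gene were not used here, so the counting error of low values is unknown, and no source used here states the strand or multi-mapping settings. The authors also deposited log2 group means, ratios between groups and q-values per day; only ratios and q-values of the 4 genes were taken from them, and the terms of the authors' model are not given.

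RPKM values were used as deposited and transformed to log2(RPKM + 1), which understates changes of low genes. Genes with at least 1 RPKM in at least 3 libraries (11863 of 24950) entered 1 limma fit (version 3.58.1, R 4.3.3, trend and robust moderation) of 12 group means with 24 residual degrees of freedom. P-values were adjusted over all genes within a contrast by Benjamini-Hochberg and called under 0.05. The fit was tested on simulated data. Groups were taken from the labels, and columns were matched to them through the deposited sample sheet.

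The labels give the groups the same replicate numbers. Deviations from the group means correlated above 0.1 for every same-numbered pair in 2 of 15 comparisons, gWT day 0 to day 3 (0.347, 0.186 and 0.142) and gKO against gWT at day 3 (0.126, 0.115 and 0.222), where the pairing is inferred from the data. A replicate block changed no call of the 4 genes in either.

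The members, lists, tests and naming rule were chosen with earlier results of these data known. Named genes are the 4 enzymes, the 5 most alike each (1 is not reported here), Irf8 and list genes with a group mean of at least 5 RPKM. Alternatives were another pseudocount, no filter, quantile scaling, equal summed RPKM, plain moderation, only the groups compared, the library letter, the replicate block and each replicate left out. Scaling to equal summed RPKM was chosen after seeing the data.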

Additional observations from a re-analysis of the deposited data

Results flagged for a closer look

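Each result here is a difference between the genotypes, or between the g and the c pair, that passed its own test (limma, log2(RPKM + 1), adjusted p under 0.05, 3 libraries per group). The tests share libraries, so they are not independent of each other. No explanation was weighed.

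The early step, day 0 to day 3, was larger in gKO than in gWT by 2.33 for Ctsk, 2.70 for Acp5, 1.55 for Mmp9 and 3.84 for Mmp14. These values take in the gKO minus gWT differences at day 0, which were -2.44 for Mmp14 and 1.02 for Mmp9. The late step, day 3 to day 6, differed (gKO minus gWT) by -1.90 for Ctsk, -2.45 for Acp5, -2.63 for Mmp9 and -1.65 for Mmp14. The early step was larger in cKO than in cWT by 2.36 for Ctsk, 2.47 for Acp5 and 0.76 for Mmp14. These values take in the cKO minus cWT differences at day 0, which were -0.73 for Ctsk, -1.003 for Acp5 and -0.25 for Mmp14. The late step differed (cKO minus cWT) by -1.20 for Ctsk, -0.73 for Acp5 and -0.98 for Mmp9.

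The KO minus WT difference of the c pair less that of the g pair at day 0 was -0.73 for Ctsk, -0.96 for Acp5 and 2.19 for Mmp14. At day 3 it was -1.19 for Acp5, -0.87 for Mmp9 and -0.88 for Mmp14. At day 6 it was 0.79 for Mmp9 and 0.52 for Mmp14. The Mmp14 means at day 0 were 15.1 RPKM in gWT, 1.97 in gKO, 1.59 in cWT and 1.18 in cKO, so gWT alone stood apart. Within days 0 and 3 the labels of the c pair coincide with the library letter.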

How the results depend on the processing

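Of 1380 recomputed values of the 4 genes, 1268 kept their direction and side of the threshold, 69 lost their call, 17 gained one and 26 changed sign. All changes from day 0 to day 3 in every genotype, and all genotype differences at day 3, kept their call and direction under every alternative run. For the c pair at day 3 the labels coincide with the library letter. The letter term takes its effect from cWT at day 6 alone, so no alternative separates genotype from letter within day 3. All sign changes were of differences that were not called, except Mmp9 from day 3 to day 6 in cKO. The cause was not tested, except that fewer libraries widen the intervals and that quantile scaling ties the top-ranked genes to common values by construction. Values are log2 differences unless named as counts.

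With quantile scaling the values that turned were Ctsk -0.52 for day 3 to day 6 in gKO, Mmp9 -0.44 and Mmp14 -0.036 for that step in cKO, Ctsk -0.11 for gKO against gWT at day 0, Ctsk -0.38 for cKO against cWT at day 6 and Ctsk 0.52 for gKO day 3 against gWT day 6. Calls were lost for Ctsk 0.063 in the late cKO step, Mmp14 -0.26 for cKO against cWT at day 0, Acp5 0.32, Mmp9 0.063 and Mmp14 0.24 at day 6, and, for the c minus g difference, Ctsk -0.68 at day 0 and Mmp9 -0.36 at day 3 and 0.35 at day 6. Mmp14 gained a call in the late step difference of the c pair (-0.52). With equal summed RPKM, Mmp14 turned to -0.082 in the late cKO step, Acp5 to 0.012 for gKO against gWT at day 0, and Ctsk to 0.052 and Acp5 to 0.045 for gKO day 3 against gWT day 6. Calls were lost for Mmp9 0.27 in the late cKO step and for Mmp14 -0.21 at day 0 and 0.22 at day 6 between cKO and cWT, and gained for the step differences of the c pair, Mmp9 0.47 early and Mmp14 -0.53 late.

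With only the groups compared, calls were gained for the late gKO step (Ctsk 0.44, Acp5 0.21), gKO against gWT at day 6 (Ctsk 0.44, Mmp14 -0.25), cKO against cWT at day 6 (Ctsk 0.43), the late step difference of the c pair (Mmp14 -0.25), the c minus g difference (Ctsk -0.71 at day 3, Acp5 0.53 at day 6) and gKO day 3 against gWT day 6 (Mmp14 -0.22). They were lost for Mmp14 -0.25 between cKO and cWT at day 0 and for the c minus g difference at day 0 (Ctsk -0.73, Acp5 -0.96), and the count of genes called between cKO and cWT at day 6 went from 6357 to 4165.

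With the library letter as a term, Mmp14 turned to -0.096 in the late cKO step, and calls were lost there for Ctsk 0.41, Acp5 0.58 and Mmp9 0.27. They were lost for Mmp14 0.35 in the late cWT step, for cKO against cWT at day 0 (Ctsk -0.55, Acp5 -0.79, Mmp14 -0.13) and day 6 (Acp5 0.60, Mmp14 0.19), for the late step difference of the c pair (Ctsk -1.49, Acp5 -1.08), and for the c minus g difference at day 0 (Ctsk -0.55, Acp5 -0.74), day 3 (Acp5 -0.98, Mmp9 -0.77) and day 6 (Mmp14 0.44). The number of genes called went from 6768 to 2818 in the late cKO step, from 8063 to 5112 and from 6357 to 4075 for cKO against cWT at days 0 and 6, from 8201 to 3249 for the late step difference and from 6511 to 3100 for the c minus g difference at day 3. With cWT replicate 3 as the only day 6 cWT library, calls were lost for Mmp14 0.35 in the late cWT step, Acp5 0.60 and Mmp14 0.19 against cKO, and Mmp14 0.44 for c minus g, and 4021 genes were called between cKO and cWT at day 6.

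Without the filter, calls were lost for Mmp9 0.37 in the late cKO step, Mmp14 -0.25 and 0.26 for cKO against cWT at days 0 and 6, and Ctsk -0.73 for c minus g at day 0. With a pseudocount of 0.1 they were lost for Mmp14 0.27 in the late cWT step and 0.26 for cKO against cWT at day 6. Moderation without trend and robustness changed none of these. With the replicate block, Mmp14 -0.25 for gKO against gWT at day 6 (adjusted p = 0.0258) and Ctsk -0.71 for c minus g at day 3 (adjusted p = 0.0413) gained a call, and no other call of the 4 genes changed. In those comparisons the libraries share only a number.

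Leaving out each library in turn changed a call or sign in these ranges. For c minus g at day 0 it gave -1.08 to -0.49 for Ctsk and 0.14 to 0.51 for Mmp9, at day 3 -0.91 to -0.57 for Ctsk and at day 6 -0.059 to 0.046 for Ctsk. For gKO against gWT at day 0 it gave -0.23 to 0.35 for Ctsk and -0.27 to 0.21 for Acp5, and for gKO day 3 against gWT day 6 -0.017 to 0.018 and -0.046 to 0.030. For cKO against cWT it gave -0.97 to -0.49 for Ctsk and -0.35 to -0.18 for Mmp14 at day 0, and 0.24 to 0.30 for Mmp14 at day 6. For the late step it gave 0.57 to 0.61 for Ctsk and 0.33 to 0.40 for Mmp9 in cKO and 0.23 to 0.34 for Mmp14 in cWT. For the step differences of the c pair it gave 0.19 to 0.47 for Mmp9 early and -0.80 to -0.66 for Acp5 late.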
